A study of Homo sapiens with 12 samples.

Results

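The genes of 10 WNT antagonists were followed in PC3 prostate cancer cells that overexpress 1 of them, SFRP2. They were chosen by name from what they do outside or at the surface of a cell, as 10 of the 60676 genes in the count table: SFRP1, SFRP2, SFRP4, SFRP5 and FRZB, which form the secreted frizzled-related protein family, WIF1, DKK1 and DKK3, the DKK1 receptor gene KREMEN1, and NOTUM. All 10 were found in the table by symbol. PC3 is an established human cell line from a bone metastasis of a prostate carcinoma. The cells were either PC3SFRP2, which carry the human SFRP2 coding sequence inserted by a transposon plasmid, or PC3 controls, which carry the same plasmid without that sequence. Both lines therefore also express red fluorescent protein and puromycin resistance, and both had been selected with puromycin and sorted for the red protein. For each line, 100000 cells were seeded on collagen 1-coated flasks (COL1) or on uncoated culture plastic (CCP), and RNA was taken after 5 days. The 4 groups were COL1-PC3SFRP2, COL1-PC3, CCP-PC3SFRP2 and CCP-PC3, with 3 libraries each, and the comparisons ask what SFRP2 overexpression changes on each surface and what collagen 1 changes in each line. Each cell type was 1 transfected pool and no independently made line was described, so that p-values measure the spread between libraries of these pools. In the reported fit that spread was estimated over the 4 groups together. A p-value there also carries the spread of groups outside its comparison. Counts of SFRP2 come from the inserted and the cell's own copy together, and in bulk RNA fewer cells with a transcript and less of it per cell cannot be told apart.

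WNT proteins are secreted signals that bind a Frizzled receptor and, in the branch that stabilises beta-catenin, the co-receptor LRP5 or LRP6. Secreted frizzled-related proteins and WIF1 bind the WNT protein itself, although SFRP2 has also been described to favour WNT signalling in some settings. DKK1 instead binds LRP5 and LRP6, with KREMEN1 as a partner that removes the complex from the cell surface, and NOTUM cuts off the lipid that a WNT protein needs to bind its receptor. DKK1 is itself a target of beta-catenin and is known in prostate cancer as a secreted inhibitor of bone formation, which is why its level in cells from a bone metastasis is of interest.

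The promoters of SFRP2 and DKK1 are shown because these genes held nearly all of the antagonist RNA, one through a plasmid that does not use its own promoter and the other from its own locus. The sequences are from RefSeq, build GRCh38.p14, 250 bases before to 50 bases after the start of the gene, printed 5′ to 3′ on the strand of the gene, and 6 of the 10 genes matched an entry. SFRP2 lies on the minus strand at chr4:153789034-153789333 and DKK1 on the plus strand at chr10:52314031-52314330. Capitals mark the TCF/LEF letters, which are CTTTG followed by AA, by AT, by TA or by TT, searched on both strands and with no overlap here, and the TATA letters TATAAA, searched on the strand of the gene.
SFRP2: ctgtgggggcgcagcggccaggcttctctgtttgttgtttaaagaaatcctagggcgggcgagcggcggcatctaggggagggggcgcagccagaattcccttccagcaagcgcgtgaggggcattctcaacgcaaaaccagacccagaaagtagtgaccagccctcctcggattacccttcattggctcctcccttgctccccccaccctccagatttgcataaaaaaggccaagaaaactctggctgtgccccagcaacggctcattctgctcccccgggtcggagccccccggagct
DKK1: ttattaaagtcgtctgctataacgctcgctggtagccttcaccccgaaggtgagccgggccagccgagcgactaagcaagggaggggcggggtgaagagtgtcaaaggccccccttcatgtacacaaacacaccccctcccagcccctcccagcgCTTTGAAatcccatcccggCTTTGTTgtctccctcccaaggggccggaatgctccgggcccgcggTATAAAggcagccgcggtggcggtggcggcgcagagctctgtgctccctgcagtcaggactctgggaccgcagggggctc
The DKK1 promoter held 2 TCF/LEF matches, CTTTGAA starting 95 bases and CTTTGTT 76 bases before the start, and TATAAA 30 bases before it. Of the 35116 promoters of this length, 13.8% held at least 1 such TCF/LEF match, 1.6% held at least 2, and 7.3% held TATAAA. The SFRP2 promoter held neither. Such a match is a description of letters and not a site of binding.

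Libraries had between 5529459 and 9975972 counts. Of the 10 antagonist genes, 7 reached the minimum of 10 counts summed over the 12 libraries and were tested, while SFRP4, SFRP5 and WIF1 did not. The genes that mark PC3 cells were present, with 5 of 5 having counts in every group and summed levels of 3591 to 5268 CPM in COL1-PC3SFRP2, 2364 to 2969 CPM in COL1-PC3, 2199 to 2268 CPM in CCP-PC3SFRP2 and 2034 to 2385 CPM in CCP-PC3 (CPM, counts scaled to the library total after TMM normalization of the library totals). Markers of immune cells summed to at most 0.777 CPM in any library, and those of fibroblasts to 9.17 to 16.7 CPM in COL1-PC3SFRP2, 8.77 to 10.8 CPM in COL1-PC3, 8.36 to 12.8 CPM in CCP-PC3SFRP2 and 7.34 to 8.87 CPM in CCP-PC3; their part in the results was not tested. Androgen-responsive luminal markers, looked for as low or absent in PC3, summed to 10.7 to 60.9 CPM in COL1-PC3SFRP2 and 21.6 to 25.6 CPM in COL1-PC3. They summed to 15.7 to 17.1 CPM in CCP-PC3SFRP2 and 29.5 to 34.3 CPM in CCP-PC3. Endothelial markers summed to 7.34 to 17.8, 11.8 to 14.9, 10.7 to 12.5 and 12.9 to 16.9 CPM in the same order of groups. What these levels mean for the results was not tested. The third COL1-PC3SFRP2 library stood apart. Its Pearson correlations of log2 CPM with the other libraries of its group were 0.88 and 0.821 over genes of at least 10 CPM, against 0.958 to 0.992 for every other pair within a group. Of its counts 7.17% came from mitochondrial genes, against 13.7% and 16.8% in the others of its group. In the libraries of the other groups this share was 19.8% to 24%. All 3 COL1-PC3SFRP2 libraries thus lay below them, which leaving out the third does not change. The part of this in the results was not tested. In a further deposited table that holds all libraries (the all-library table), the column named for this library has other counts, and the counts used here stand under the number 4, so that which culture it was is not settled. Results on COL1-PC3SFRP2 are therefore also given without it and from that table. The column that stands there in its place had a Pearson correlation of 0.837 with the mean of the other COL1-PC3SFRP2 libraries. With the means of COL1-PC3, CCP-PC3SFRP2 and CCP-PC3 it was 0.961, 0.977 and 0.968. How far this moved the values from that table was not tested.

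The antagonist genes spanned the whole range from not detected to the most abundant RNA of a library. SFRP2 and DKK1 were high, SFRP1 and KREMEN1 were low but counted in each of the 12 libraries, and the other 6 had between 0 and 13 counts over all libraries. Per kilobase of transcript, DKK1 made up 98.5% to 99.4% of the summed level of the 10 genes in the 6 control PC3 libraries. In the PC3SFRP2 libraries SFRP2 made up 89.9% to 98.3% of it. The repertoire of control PC3 cells was thus almost entirely DKK1 by this measure.

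**Figure D1:**
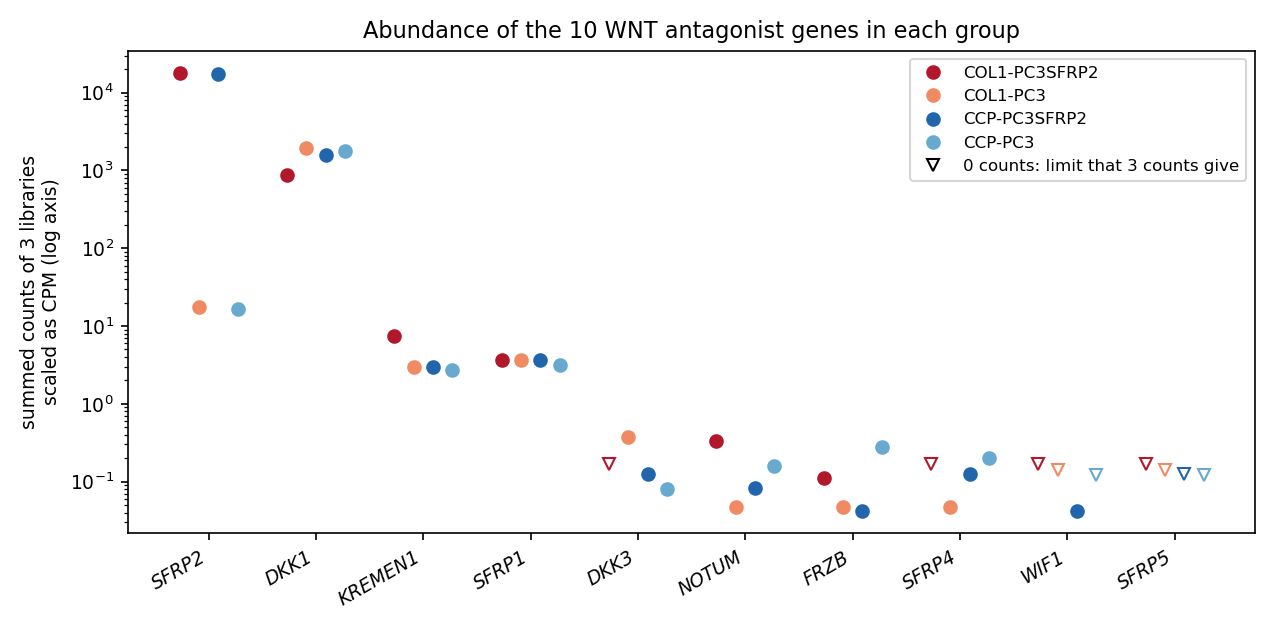
Summed counts of the 3 libraries of each group divided by the summed total and scaled as CPM, on a log axis, for the 10 antagonist genes in order of total counts. Open triangles stand at the limit that 3 counts give where a group had 0 counts, and the 6 genes on the right all lie below 1 CPM.

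Among the genes whose products bind WNT, SFRP2 differed between the lines by design. In COL1-PC3SFRP2 libraries it had 15681, 10421 and 31131 CPM, against 27.0, 20.5 and 10.9 CPM in COL1-PC3. In CCP-PC3SFRP2 libraries it had 15990, 15060 and 18583 CPM, against 10.7, 15.9 and 24.3 CPM in CCP-PC3. These ranges are far apart and the third COL1-PC3SFRP2 library was the highest of all. SFRP2 ranked 1 among all genes of that library and 5 to 7 in the other PC3SFRP2 libraries, against 5618 to 8664 in the PC3 libraries. Its control level was low but never 0, at 98 to 188 counts a library. Where these counts came from was not tested. The paper describes the SFRP2 promoter as hypermethylated in PC3 cells. By qPCR it reports a larger difference between the lines than the log2 fold changes of 9.95 on COL1 and 9.93 on CCP here. As the plasmid sets the difference between the lines, what can be asked is whether the surface changed the level. It averaged 19078 ± 10765 CPM in COL1-PC3SFRP2 and 16545 ± 1826 CPM in CCP-PC3SFRP2 (SD, n = 3 each), a log2 fold change of 0.21 (SE 0.36) with an adjusted p of 0.695 in edgeR's quasi-likelihood test. The groups overlapped, and its direction was not stable, at -0.34 without the third COL1-PC3SFRP2 library and -0.25 with a correction of all libraries for GC content and transcript length. In 1 of the 24 other settings, with that correction and without that library, SFRP2 was lower on COL1 and passed (-0.69, adjusted p = 0.000257). In PC3 cells the means were 19.5 ± 8.09 CPM on COL1 and 17.0 ± 6.88 CPM on CCP (SD, n = 3 each), a log2 fold change of 0.19 (SE 0.39, adjusted p = 1 in edgeR).

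**Figure D2:**
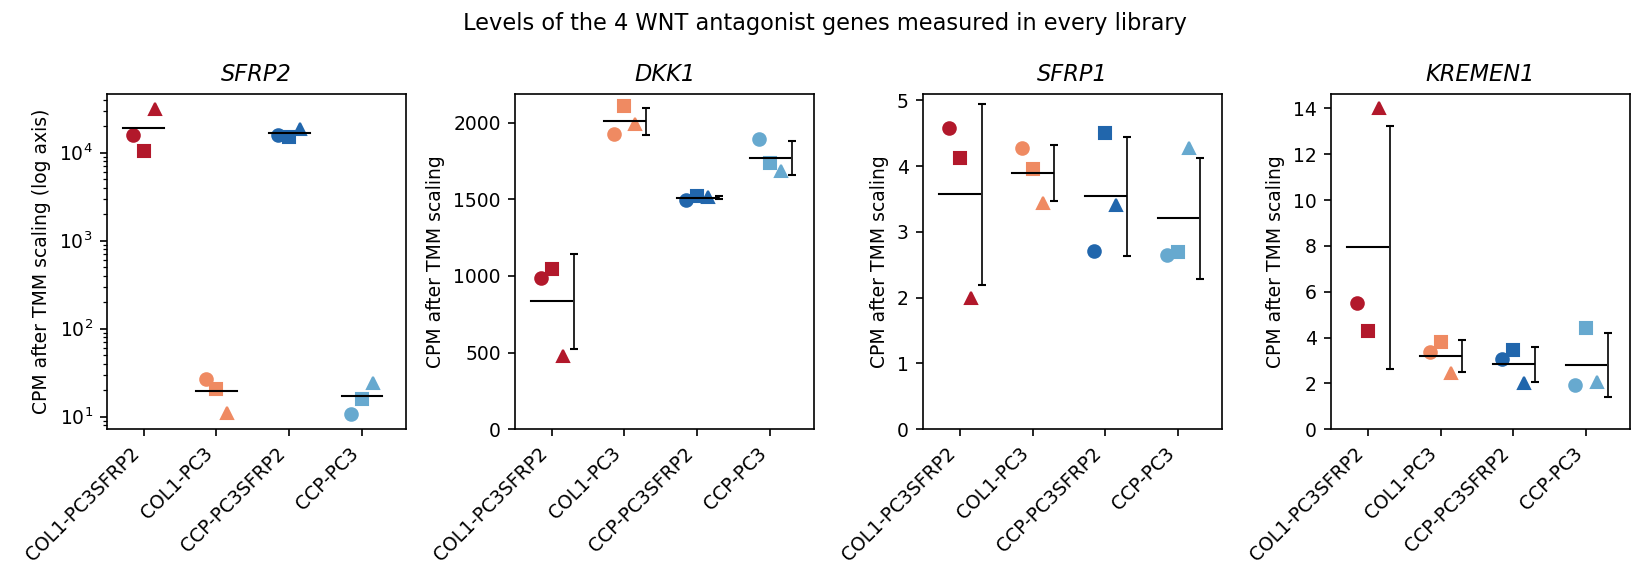
Level of the 4 antagonist genes with counts in every library, in CPM after TMM scaling, with circle, square and triangle for replicates 1, 2 and 3; lines are means of 3 libraries and bars are SD (not drawn for SFRP2, which is on a log axis). DKK1 is lowest in the 3 COL1-PC3SFRP2 libraries, at 477 to 1044 CPM, and KREMEN1 reaches 14.0 CPM in the third of them.

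SFRP1, the family member that was counted throughout apart from SFRP2, did not differ detectably. It had 4.58, 4.13 and 2.0 CPM in COL1-PC3SFRP2, against 4.28, 3.95 and 3.44 CPM in COL1-PC3. It had 2.71, 4.5 and 3.41 CPM in CCP-PC3SFRP2, against 2.65, 2.69 and 4.27 CPM in CCP-PC3. The groups overlapped in each comparison, with 10 to 35 counts a library behind these levels. Its log2 fold change between PC3SFRP2 and PC3 was -0.092 (SE 0.35) on COL1 and 0.14 (SE 0.34) on CCP, so that changes well under 1 on the log2 scale could not be told from 0 at this depth. On CCP larger changes could be missed too, as TRABD2A did not pass there at 1.38 (SE 0.41, adjusted p = 0.563 in edgeR). SFRP1 passed the test in no comparison and under no setting tried.

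The remaining WNT-binding antagonists were at the edge of detection. FRZB had 1, 1 and 0 counts in COL1-PC3SFRP2 and 1, 0 and 0 in COL1-PC3, with 1, 0 and 0 in CCP-PC3SFRP2 and 2, 2 and 3 in CCP-PC3. SFRP4 had 0 counts in COL1-PC3SFRP2 and 1 in COL1-PC3, with 3 in CCP-PC3SFRP2 and 5 in CCP-PC3, all of the last from 1 library. WIF1 had a single count, in the third CCP-PC3SFRP2 library. SFRP5 had 0 counts in all 12 libraries, which allows up to 0.0339 CPM over the series, taking 3 counts as the limit; such limits cover counting error only. No fold change is given for these genes.

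DKK1, the secreted LRP5 and LRP6 inhibitor, was lower in PC3SFRP2 than in PC3 on COL1. It had 984, 1044 and 477 CPM in COL1-PC3SFRP2, against 1928, 2106 and 1992 CPM in COL1-PC3. The highest COL1-PC3SFRP2 library lay well below the lowest of COL1-PC3, and the third was the lowest library of the series. The group means were 835 ± 312 CPM in COL1-PC3SFRP2 and 2009 ± 89.9 CPM in COL1-PC3 (SD, n = 3 each), and the log2 fold change was -1.27 (SE 0.22, adjusted p = 0.00103 in edgeR). With SFRP2 and KREMEN1 it was 1 of 3 antagonist genes called in this comparison, in which 35.3% of the 20364 genes tested were called, 18.2% higher and 17.2% lower. A call is thus common here, and the 1 of 7 that fell is close to the background share.

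On CCP, DKK1 had 1498, 1522 and 1516 CPM in CCP-PC3SFRP2, against 1893, 1739 and 1682 CPM in CCP-PC3. These ranges did not overlap either. The log2 fold change was -0.23 (SE 0.22) with an adjusted p of 1 in edgeR, so that this lower level did not pass the test. Without the third COL1-PC3SFRP2 library, which is outside this comparison, the SE was 0.10. DKK1 did not pass there either (-0.23, adjusted p = 0.323 in edgeR). SFRP2 was the only antagonist gene called on CCP, where 0.103% of genes were called (0.0393% higher and 0.0638% lower). That share of all genes was 1.84% without that library and 4.5% with only the libraries of the groups compared. The change of DKK1 on COL1 minus that on CCP was -1.04 (SE 0.31) on the log2 scale with an adjusted p of 0.0521, just outside the threshold. DKK1 was the 1 of the 7 antagonist genes at an unadjusted p under 0.05 in edgeR, against 6221 of the 20364 genes tested. After adjustment 0 of the 7 passed this interaction test, against 7.53% of all genes, 4.48% higher and 3.04% lower (0 called with robust estimation in edgeR and 1 with DESeq2). A difference of the effect between the surfaces is therefore not shown by the reported fit. This missed the threshold by a narrow margin: DKK1 passed when any 1 COL1-PC3SFRP2 library was left out, with values of -1.24 without replicate 1, -1.3 without replicate 2 and -0.75 without replicate 3, and did not pass when any other library was. The weakest values were -0.47 with the all-library table (adjusted p = 0.748) and -0.44 with that table corrected (adjusted p = 0.273), and over 23 other settings DKK1 passed in 9.

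Between surfaces, DKK1 was lower on COL1 than on CCP in PC3SFRP2 cells. The group means were 835 ± 312 CPM in COL1-PC3SFRP2 and 1512 ± 12.7 CPM in CCP-PC3SFRP2 (SD, n = 3 each), a log2 fold change of -0.86 (SE 0.22, adjusted p = 0.00676 in edgeR), with no overlap of the libraries. This call of DKK1 was lost with only the libraries of both groups in the fit (adjusted p = 0.0545), with the all-library table (-0.28, adjusted p = 0.365) and with that table corrected. Over 24 other settings the value was -1.11 to -0.21 and passed in 21. The 902 genes of a bin of 42.2% to 44.4% GC, DKK1 included, had a median log2 fold change of -0.51 in this comparison. The part of GC content in the change of DKK1 was not tested. DKK1 and KREMEN1 were the 2 of 7 antagonist genes called, 1 in each direction, against 37.8% of all genes (20% higher and 17.8% lower). In PC3 cells DKK1 averaged 2009 ± 89.9 CPM on COL1 and 1771 ± 109 CPM on CCP (SD, n = 3 each), a log2 fold change of 0.18 (SE 0.22, adjusted p = 1). In that comparison 0 antagonist genes were called by edgeR, 0 at an unadjusted p under 0.05 and 0 by DESeq2, against 0% of all genes (793 genes at an unadjusted p under 0.05; 6 called with DESeq2, 36 without the third COL1-PC3SFRP2 library and up to 339 over the settings).

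DKK1 ranked 89, 81 and 330 among all genes in the COL1-PC3SFRP2 libraries, against 45, 32 and 28 in COL1-PC3, 37 to 38 in CCP-PC3SFRP2 and 30 to 36 in CCP-PC3. It was a strongly expressed gene in every group even where it fell. There were 15.9, 9.98 and 65.3 SFRP2 counts for each DKK1 count in COL1-PC3SFRP2, and 10.7, 9.89 and 12.3 in CCP-PC3SFRP2. The second COL1-PC3SFRP2 library lay within the range of the uncoated flasks, the first was above it and the third far above it. In control cells the ratio was 0.00546 to 0.014 on COL1 and 0.00565 to 0.0145 on CCP.

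The size of the DKK1 change on COL1 moved with the third COL1-PC3SFRP2 library, and also with a joint correction for GC content and transcript length. Over the 24 other settings it was -1.47 to -0.56. Without that library the log2 fold change was -0.98 and still passed. With the all-library table, whose column for this library has other counts, it was -0.69 and did not pass (adjusted p = 0.0613 in edgeR), and there 262 genes or 1.28% were called. Fold changes on COL1 moved with GC content over all genes. The deviation of a library from the mean of the libraries outside COL1-PC3SFRP2 had a Spearman correlation with GC content of 0.782 to 0.875 in the COL1-PC3SFRP2 libraries and of -0.625 to 0.679 in the other 9, over 9007 genes that share library and depth. Those 9 make up that mean, so that deviations of both signs among them follow from the measure. The DKK1 transcript has 43.7% GC. The 902 genes of its bin, 1 of 10 bins of nearly equal size by GC, had a median log2 fold change of -0.48 on COL1. That bin spans 42.2% to 44.4% GC and includes DKK1. DKK1 lay below that median, and once the libraries had been corrected for GC and transcript length the change was -0.80 (SE 0.13, adjusted p = 0.000346 in edgeR). The correction does not separate GC content from length, and the part of either alone in the result was not tested.

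**Figure D3:**
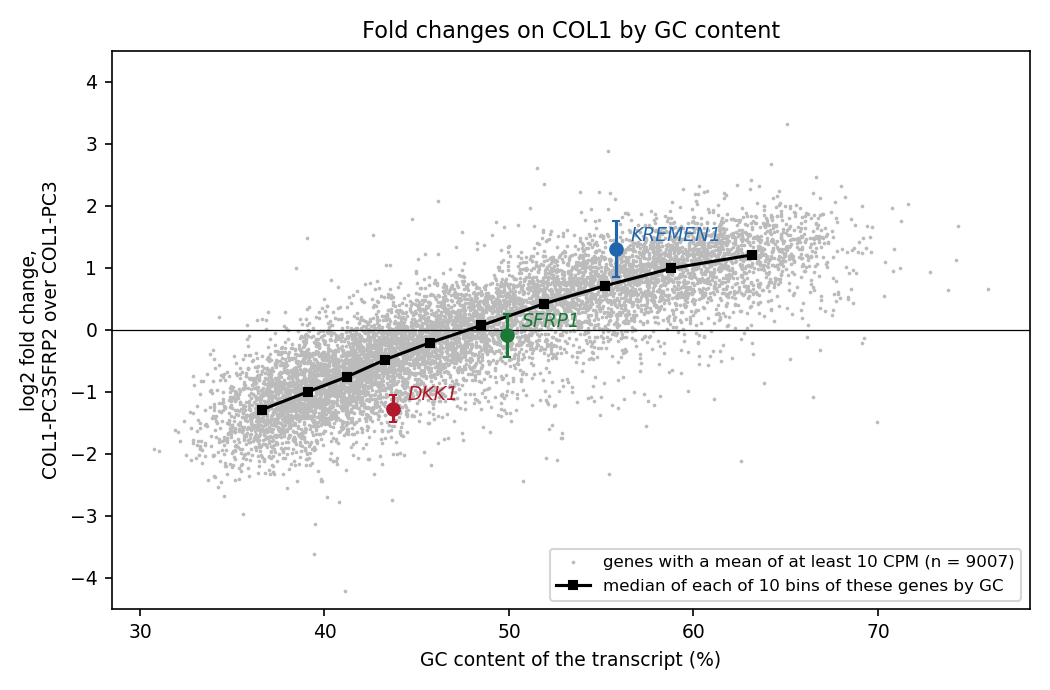
Log2 fold change of COL1-PC3SFRP2 over COL1-PC3 against GC content of the transcript in percent, for 9007 genes with a mean of at least 10 CPM (grey; 1 gene, SFRP2, lies outside the axis), with the median of each of 10 bins by GC (black) and DKK1, SFRP1 and KREMEN1 with bars of SE. The medians run between -1.29 and 1.21, and DKK1 at -1.27 lies below the median of -0.48 of its bin.

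Over the 12 libraries, the genes with the pattern most like DKK1 were GSPT1, RSL1D1 and CD24. Likeness was the root mean square difference of log2 levels, each gene centred on its own mean, which was 0.07, 0.07 and 0.08 for these genes, against 0.58 for a gene that does not vary, among 9006 genes. Their GC content was 41.0%, 44.7% and 41.1%, near that of DKK1. For SFRP2 no gene was close. The nearest were SDF2L1, PDIA4 and HSPA5, which encode proteins of the endoplasmic reticulum, at 3.95, 3.99 and 4.06 against 4.97 for a gene that does not vary.

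KREMEN1, the gene of the DKK1 receptor, was higher in PC3SFRP2 than in PC3 on COL1, a call that was less stable across settings than that of DKK1. It had 5.53, 4.28 and 14.0 CPM in COL1-PC3SFRP2, against 3.35, 3.79 and 2.44 CPM in COL1-PC3. The COL1-PC3SFRP2 libraries were all above those of COL1-PC3, but the third stood well above the others of its group, with 70 counts where those had 35 and 28. The log2 fold change was 1.30 (SE 0.45, adjusted p = 0.0336 in edgeR). Without the third COL1-PC3SFRP2 library it was 0.65 and did not pass (adjusted p = 0.187), and it was 0.52 with the GC and length correction and 0.36 with the all-library table, neither of which passed. It also did not pass when any 1 of the COL1-PC3 libraries was left out (log2 fold changes of 1.12 to 1.45).

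On CCP, KREMEN1 had 3.05, 3.47 and 2.0 CPM in CCP-PC3SFRP2, against 1.94, 4.43 and 2.07 CPM in CCP-PC3. These overlapped, with a log2 fold change of 0.028 (SE 0.46, adjusted p = 1 in edgeR). Between surfaces in PC3SFRP2 cells the mean was 7.93 ± 5.27 CPM on COL1 and 2.84 ± 0.759 CPM on CCP (SD, n = 3 each), a log2 fold change of 1.46 (SE 0.44, adjusted p = 0.0167), which was 0.79 and not past the threshold without the third COL1-PC3SFRP2 library. It also did not pass without the first or the third CCP-PC3SFRP2 library (1.44 and 1.26, adjusted p = 0.055 and 0.0728). The change on COL1 minus that on CCP was 1.27 (SE 0.64, adjusted p = 0.192). Both calls of KREMEN1 thus depended on single libraries.

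**Figure D4:**
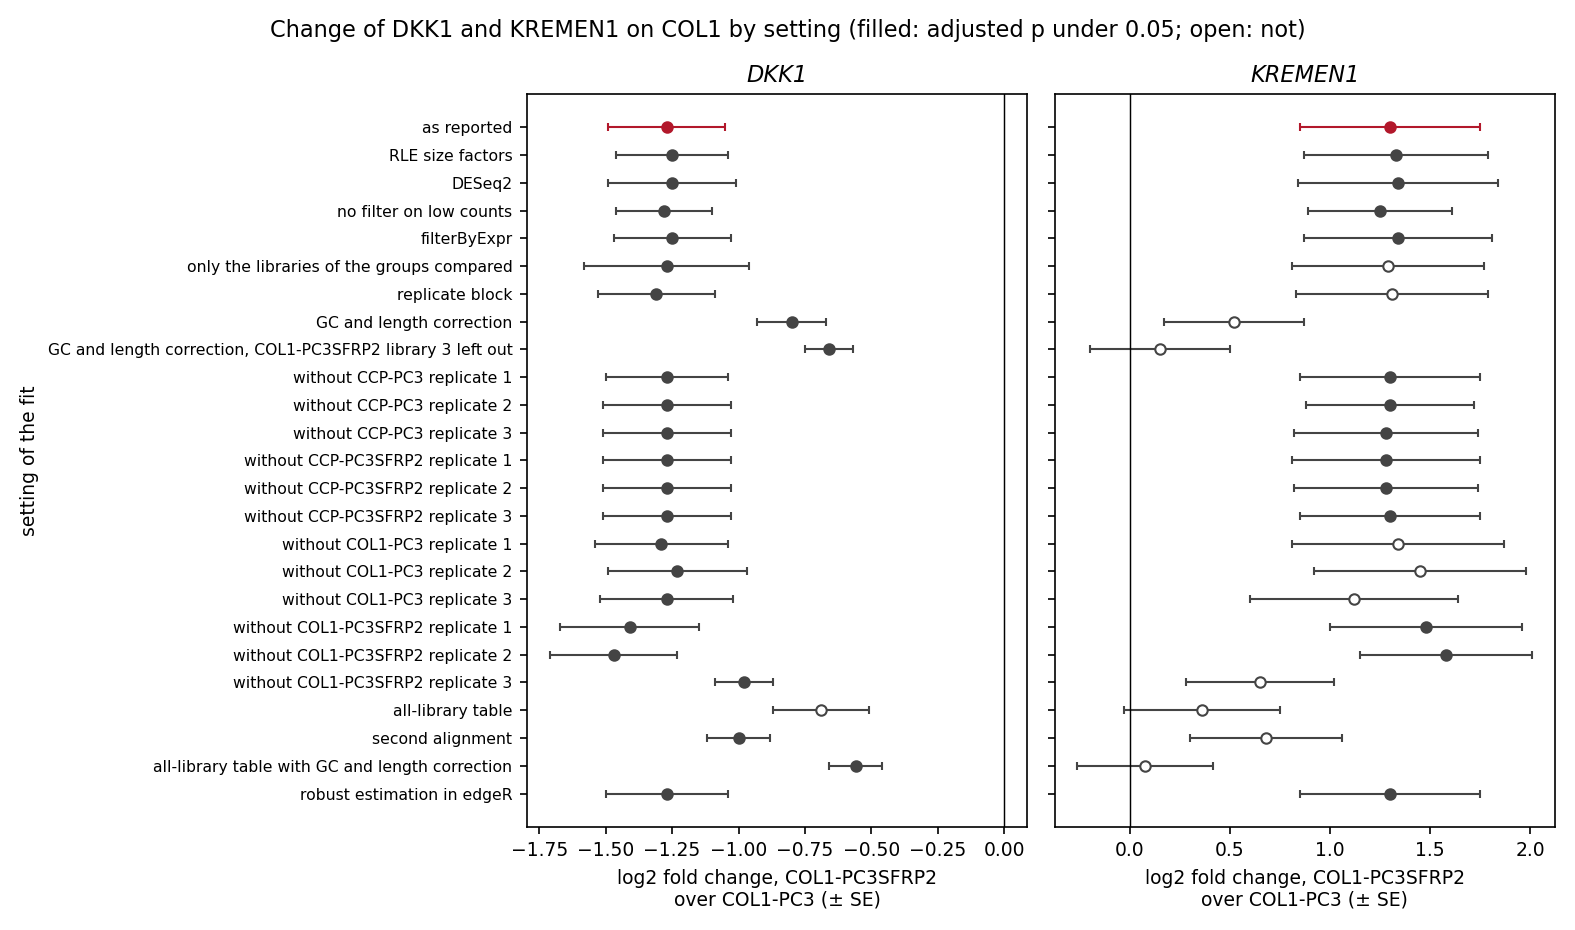
Log2 fold change of DKK1 and KREMEN1 for COL1-PC3SFRP2 over COL1-PC3 (points, with bars of SE) as reported and under each of 24 other settings; filled points passed an adjusted p of 0.05. DKK1 stayed below 0 in every setting, between -1.47 and -0.56, and KREMEN1 passed in 13 of the 24.

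DKK3, a relative of DKK1 whose product is not known to block LRP5 and LRP6 in the same way, had 0, 0 and 0 counts in COL1-PC3SFRP2, against 0, 4 and 4 in COL1-PC3, 1, 2 and 0 in CCP-PC3SFRP2 and 0, 0 and 2 in CCP-PC3. NOTUM had 1, 2 and 3 counts in COL1-PC3SFRP2, against 0, 1 and 0 in COL1-PC3, 0, 2 and 0 in CCP-PC3SFRP2 and 3, 0 and 1 in CCP-PC3. Both had 13 counts in all and passed no test, with adjusted p of 0.0893 and 0.208 in edgeR for PC3SFRP2 over PC3 on COL1. Neither could be said to change at this depth.

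The other genes of the pathway were taken as lists by role. On CCP 0 of the 50 tested were called in PC3SFRP2 over PC3 by edgeR (0 called with DESeq2). With 0.103% of all genes called there, this count of calls says nothing particular of them. At an unadjusted p under 0.05 in edgeR there were 12 of the 50, against 993 of the 20364 genes tested. That is a larger share, in lists chosen with earlier results of these data known, and what it means was not tested. On COL1, of 11 tested other WNT inhibitors, IGFBP4 was higher and SHISA2 was lower, against 35.3% of all genes called, with a median log2 fold change of 0.67 over the list, against 0.0055 over all genes tested. The list medians given here and below were not matched for GC content, with which fold changes on COL1 moved over all genes. IGFBP4, which encodes a secreted binding protein of insulin-like growth factors, had 353, 318 and 547 CPM in COL1-PC3SFRP2, against 202, 166 and 146 CPM in COL1-PC3, and its log2 fold change was 1.24 (SE 0.22, adjusted p = 0.00105). Its groups did not overlap. SHISA2, which encodes a protein that holds Frizzled receptors back in the endoplasmic reticulum, had 7.11, 7.64 and 7.59 CPM in COL1-PC3SFRP2, against 11.9, 11.4 and 21.1 CPM in COL1-PC3, and its log2 fold change was -1.0 (SE 0.26, adjusted p = 0.00761). Without the third COL1-PC3 library SHISA2 was at -0.64 and did not pass (adjusted p = 0.0609), nor did it with the all-library table (-0.49, adjusted p = 0.404), and with the GC and length correction IGFBP4 was at 0.20 and did not pass (adjusted p = 0.266).

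The receptors that the antagonists act on moved both ways on COL1, with 2 higher and 2 lower of 14 tested and a list median of 0.09, against 18.2% higher and 17.2% lower over all genes, so that the calls were no more frequent than the background. LRP5, the co-receptor that DKK1 binds, had 120, 104 and 566 CPM in COL1-PC3SFRP2, against 97.4, 75.0 and 48.8 CPM in COL1-PC3. Its log2 fold change of 1.84 (SE 0.48, adjusted p = 0.0082) was 0.62 without the third COL1-PC3SFRP2 library, which still passed, and 1.61 without the third COL1-PC3 library, which did not (adjusted p = 0.0518). It was 0.51 with the GC and length correction and 0.26 with the all-library table, and passed in neither. FZD2 was also higher (1.26, SE 0.23, adjusted p = 0.00115), while FZD6 was lower (-1.63, SE 0.31, adjusted p = 0.00163). FZD6 was at -0.52 with the GC and length correction, where it passed, and at -0.70 with the all-library table and -0.30 with that table corrected, where it did not (adjusted p = 0.185 and 0.0938), and FZD2 was at 0.79 with the all-library table and did not pass (adjusted p = 0.102). LRP6, the other co-receptor bound by DKK1, had a log2 fold change of -0.40 (SE 0.26, adjusted p = 0.247), which was 0.24 with the GC and length correction.

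Of the WNT ligand genes, 5 were higher and 1 was lower of 14 tested on COL1, with a list median of 0.78, against 18.2% higher and 17.2% lower over all genes. This median was not matched for GC content, and the medians of bins by GC over genes of at least 10 CPM ran from -1.29 to 1.21 on COL1. WNT4 (log2 fold change 2.89, SE 0.83), WNT10B (2.45, SE 0.56) and WNT5B (1.97, SE 0.64) had the largest changes among the called ligands and had few counts, as WNT10B shows with 25, 21 and 15 counts in COL1-PC3SFRP2, against 6, 5 and 1 in COL1-PC3. WNT4 lost its call when COL1-PC3SFRP2 replicate 3 (1.46) or COL1-PC3 replicate 3 (2.35) was left out and in 6 other settings. The lowest value was 0.67, with a further deposited table called the second alignment here (adjusted p = 0.558 in edgeR) and with the corrected all-library table (adjusted p = 0.608). WNT10B did not pass with the GC and length correction (1.67, adjusted p = 0.0519) or the all-library table (2.02, adjusted p = 0.152). WNT5B lost its call in 4 other settings, among them the correction (1.25, adjusted p = 0.214), and when COL1-PC3SFRP2 replicate 1 or 2 or COL1-PC3 replicate 2 or 3 was left out (1.54 to 1.9). WNT5A was the one that was lower (-0.98, SE 0.25, adjusted p = 0.00721), and it was at -0.31 with the GC and length correction and -0.29 with the all-library table, without passing in either. Of the 2 tested genes that enhance WNT signalling, LGR4, which encodes a receptor of R-spondins, was lower (-1.25, SE 0.21, adjusted p = 0.000762), and it passed under each of the 24 other settings, with values of -1.4 to -0.60, the smallest of them with the GC and length correction.

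Genes that beta-catenin raises as feedback, gave 1 call of 11 tested on COL1, against 35.3% of all genes, and a list median of 0.05. This was NKD2, which encodes an inhibitor of Dishevelled, with 17, 18 and 28 counts in COL1-PC3SFRP2, against 8, 7 and 15 in COL1-PC3 (log2 fold change 1.33, SE 0.47, adjusted p = 0.0392). It passed in 10 of the 24 other settings and was at 0.043 with the GC and length correction. The call of NKD2 was lost when COL1-PC3SFRP2 replicate 3 (0.93), any COL1-PC3 replicate (1.18 to 1.48), CCP-PC3SFRP2 replicate 2 (1.31) or CCP-PC3 replicate 3 (1.31) was left out. Among those that did not pass, SP5 had a log2 fold change of 1.38 (SE 0.62, adjusted p = 0.0963 in edgeR), above that of NKD2. RNF43 was at 1.10 (SE 0.72) and TNFRSF19 at -0.59 (SE 0.24, adjusted p = 0.0611 in edgeR). LEF1 had a log2 fold change of -0.35 (SE 0.26), TCF7 of 0.33 (SE 0.32) and ZNRF3 of -0.011 (SE 0.20). CCND1 was at 0.11 (SE 0.14), MYC at -0.29 (SE 0.19) and NKD1 at 0.05 (SE 1.16). AXIN2, often used as a reporter of this pathway, had a value of -0.39 with an SE of 1.68, too wide to read. With the GC and length correction ZNRF3 was at -0.55 and passed (adjusted p = 0.0273), and TCF7, at -0.24 without the third COL1-PC3SFRP2 library, was at -0.51 and did not pass (adjusted p = 0.101).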

How the data were processed

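RNA of 12 cultures was sequenced as poly(A) libraries on an Illumina instrument. The authors aligned reads with STAR to GRCh38, and they deposited raw counts per gene; the counter is not given in the sources used here. A further deposited table of 11 of these libraries (without the third of COL1-PC3SFRP2) and an all-library table served as alternatives. The first of these is called the second alignment here, although its column names do not say how its counts were made. In the tables read, 8 columns of other libraries were not used. The labels call the replicates biological; nothing says that they came from separate transfections, so their spread may be partly technical.

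Counts were fitted with edgeR 4.0.16 (R 4.3.3; TMM, genes with at least 10 counts over the 12 libraries, 1 quasi-likelihood fit of 4 group means with default estimation of the spread, Benjamini-Hochberg adjustment over all 20364 genes tested, threshold 0.05). DESeq2 1.42.0 was an alternative. After a first fit, 9 configurations of edgeR were compared by their numbers of calls with an earlier analysis of these data, and the robust one, which gave its numbers (16 genes on CCP and 7157 on COL1, against 21 and 7191 here), was used for a time as the reported fit. As nothing named that option, the default was restored and robust estimation is given as an alternative chosen after seeing the data. Over the 9 configurations 16 to 23 genes were called on CCP and 7157 to 7455 on COL1.

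GC content and length were those of GENCODE 44 canonical transcripts, for 99.5% of IDs. The scripts were tested on simulated data with the same spread setting for every gene, no trend with GC content and no library set apart. That test therefore does not show how the fits handle those features of the real data. Antagonist genes and pathway lists were chosen with earlier results of these data known, and the genes named outside the 10 were those with the largest changes among called genes of a list, with LRP6 and the feedback genes that did not pass added after their values were seen. Limits for counts of 0 cover counting error only.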

Additional observations from a re-analysis of the deposited data

Results flagged for a closer look

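For 6 genes of the pathway lists the change between PC3SFRP2 and PC3 differed between the surfaces by an interaction test of edgeR (effect on COL1 minus effect on CCP, log2 scale, adjusted over all genes, 7.53% of which passed). No antagonist gene of the 10 was among them. The difference was 2.69 for WNT10B (adjusted p = 0.0453), 2.59 for NKD2 (0.0463) and 1.10 for IGFBP4 (0.0451), each with a larger value on COL1. It was -1.51 for FZD6 (adjusted p = 0.0482), -1.35 for SHISA2 (0.0397) and -1.17 for WNT5A (0.0493), each with a lower value on COL1. All 6 lie close to the threshold. With robust estimation FZD6 and WNT5A did not pass (adjusted p = 0.0501 and 0.0515). Of 23 other settings the test passed in 9 for WNT10B, 7 for NKD2, 9 for IGFBP4, 8 for FZD6, 12 for SHISA2 and 8 for WNT5A. Over these settings the value was 1.79 to 3.25 for WNT10B, 1.06 to 3.07 for NKD2, 0.005 to 1.24 for IGFBP4, -1.92 to -0.29 for FZD6, -1.85 to -0.84 for SHISA2 and -1.44 to -0.3 for WNT5A. The smallest of IGFBP4 came with the GC and length correction, that of SHISA2 with the all-library table, and those of WNT10B, NKD2, FZD6 and WNT5A with that table corrected.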

How the results depend on the processing

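Over the 24 other settings (23 for the interaction), DKK1 on COL1 kept its sign in all and passed in 23, and DKK1 on COL1 against CCP in PC3SFRP2 kept its sign in all and passed in 21. KREMEN1 passed in 13 and 15. The number of antagonist genes called for PC3SFRP2 over PC3 on COL1 was 3 as reported, 1 with the all-library table and 2 to 3 when 1 library was left out. For COL1 over CCP in PC3SFRP2 it was 2 as reported, 0 with only the libraries of the groups compared, with the all-library table or with that table after GC and length correction, 1 with GC and length correction or the second alignment, and 1 to 2 when 1 library was left out. For the interaction it was 0 as reported, 1 with RLE size factors, DESeq2, no filter, filterByExpr or the second alignment, 2 with GC and length correction without the third COL1-PC3SFRP2 library, and 0 to 1 when 1 library was left out. The cause of these changes was not tested.

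Some values changed sign. SFRP1 on COL1 was 0.057 with GC and length correction without the third COL1-PC3SFRP2 library, 0.12 with the all-library table, 0.056 with that table corrected and 0.19 with the second alignment (-0.32 to 0.19 when 1 library was left out). SFRP1 on COL1 against CCP in PC3SFRP2 was -0.022 without a filter and -0.11 with the correction (-0.24 to 0.31). SFRP1 on CCP was -0.0075 to 0.47 and its interaction -0.57 to 0.042 when 1 library was left out. SFRP2 on COL1 against CCP in PC3SFRP2 was -0.25 with the correction, -0.69 with it and without the third library (adjusted p = 0.000257), -0.15 with the all-library table, -0.38 with that table corrected and -0.52 with the second alignment (-0.34 to 0.42), and in PC3 -0.12 to 0.56. The SFRP2 interaction was -0.091 without a filter, -0.35 with the correction, -0.78 with it and without the third library (adjusted p = 0.0318), -0.34 with the all-library table, -0.47 with that table corrected and -0.71 with the second alignment (-0.5 to 0.32). KREMEN1 on CCP was -0.0067 with the correction and -0.003 with the corrected all-library table (-0.2 to 0.5), and COL1 against CCP in PC3 -0.042 to 0.65. On COL1, LRP5 was -0.11 with the correction without the third library and -0.18, and NKD2 -0.15, with the corrected all-library table. Also on COL1, LRP6 was 0.24 with the correction, 0.21 with it and without the third library and 0.10 with the corrected all-library table. TCF7 was -0.51, -0.78 (adjusted p = 0.000418) and -0.64 (adjusted p = 0.0276) there, -0.37 with the all-library table and -0.22 with the second alignment (-0.24 to 0.57 when 1 library was left out). ZNRF3 was 0.011 with RLE size factors, 0.0074 with DESeq2 and 0.016 with filterByExpr (-0.089 to 0.059), and AXIN2 1.25 with the all-library table, 1.18 with that table corrected and 0.067 with the second alignment (-0.9 to 0.66).

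With the replicate number as a block, 1, 3, 0, 2 and 0 antagonist genes became 1, 2, 0, 2 and 0: KREMEN1 on COL1 did not pass (1.31, adjusted p = 0.0559), the 6 pathway genes lost their interaction calls, NKD2 on COL1 did not pass (adjusted p = 0.058), and the SFRP2 interaction was -0.15. Deviations of same-numbered libraries correlated between -0.608 and 0.611, above 0.1 in 5 of 18 pairs, so that the numbers were not taken as pairs. Over all genes, the calls of 21 on CCP became 5 to 822, the 7191 on COL1 262 to 8299, the 7698 of COL1 over CCP in PC3SFRP2 4 to 8767 the 1533 of the interaction 0 to 5505 and the 0 of COL1 over CCP in PC3 0 to 339 over the settings. Genes of 13 counts or fewer in all could not be judged.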

Other observations

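The all-library table holds a different set of 7300197 counts under the number of the third COL1-PC3SFRP2 library. There DKK1 had 12962 counts (1776 CPM of the total), against 2389 counts (432 CPM of the total) in the library used above. SFRP2 had 142132 counts there and 155929 in the library used, and KREMEN1 19 and 70. SFRP1 had 30 and 10 counts. Over 9016 genes the Pearson correlation of this column with the mean of the other COL1-PC3SFRP2 libraries was 0.837, against 0.961 with COL1-PC3, 0.977 with CCP-PC3SFRP2 and 0.968 with CCP-PC3, as a description over genes that share libraries. Its SFRP2 level is that of PC3SFRP2 cells, while its DKK1 level lies above that of the 3 CCP-PC3SFRP2 libraries.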
